A study of Mus musculus with 108 samples.

Results

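Germline stem cell-like cells (GSCLCs) were examined for what their transcriptomes share and for the genes that differ from cell to cell inside 1 culture line. They are the 54 mouse cells whose titles begin with GSCLC1 or GSCLC4, 30 of line GSCLC1 and 24 of line GSCLC4. The other 54 cells of the series, as many again, are germline stem cells (GSCs) of the lines GSC1 (30 cells) and GSC2 (24 cells). Each cell is a library of its own, and a cell is named below by its title. Cells of 1 line share their culture and are not replicates of it, so variation was computed inside each line and no p-value was made from cells.

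GSCs are spermatogonial stem cells propagated from testes, and GSCLCs are cells with the same growth behaviour obtained from pluripotent stem cells by way of germ cell precursors that are combined with testicular somatic cells. Both kinds carried the background 129/SvJcl x C57BL/6 and the AcrAct_EGFP reporter. Both were grown in StemPro-34 SFM with 1% FBS and the factors GDNF (10 ng/ml), bFGF (10 ng/ml), LIF and EGF (20 ng), so the GSC lines differ from the GSCLC lines in origin and not in medium. GSCLC4 was taken from reconstituted testes held at 34 °C for 3 weeks, and GSC2 from independent P7 testes. The origin of GSCLC1 and of GSC1 is not detailed in the sources used here. Each line is a single culture, so 2 lines stand for each kind of cell.

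In a culture of dividing stem cells, transcripts differ between cells for several known reasons. Genes of DNA replication are expressed as cells enter S phase, and genes of the mitotic apparatus accumulate in G2 and M and are lost when division ends. Short-lived messages such as immediate early genes follow growth factor signals within minutes, and undifferentiated spermatogonia are known to vary in surface receptors and transcription factors while keeping a common core of germ cell RNA-binding proteins.

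Cells were amplified with SC3-seq, which sequences only the 3′ ends of messages, so the number of reads of a transcript does not grow with its length. Values are in reads-per-million units (RPM) of the reads assigned to genes. From the smallest step in each cell's values, a GSCLC1 cell held between 2000294 and 4975362 reads and a GSCLC4 cell between 2091081 and 5345195 reads, and 5 RPM, used below as the level of detection, stood for 9.99 to 26.7 reads. GSCLC1 cells had 7515 to 9847 genes above 0 (median 8607), and GSCLC4 cells 8217 to 10959 (median 9866). Spike-in RNA, added in a fixed amount and therefore a larger share where a cell gives less RNA, ran from 23123 to 77135 RPM in GSCLC1 and from 14669 to 63863 RPM in GSCLC4. Cells GSCLC1_MS094_153 and GSCLC4_MS094_117 had the highest spike-in values, and the latter also had the fewest detected genes of its line. No GSCLC cell lay more than 3 median absolute deviations below its line's median number of detected genes, no pair of cells in a line had identical values, and 1 GSC1 cell (GSC1_MS094_146) stood apart.

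Some germ cell genes were present in every GSCLC cell, among them 8 of the 24 on the core germ cell list, while others such as Tdrd9 (7 of 30 and 4 of 24 cells at 5 RPM or more) and Nanos3 (11 and 14 cells) were not. Dazl, which encodes a germ cell RNA-binding protein, ran from 1802 to 5608 RPM (median 3459.9) in GSCLC1 and from 1553 to 5259.5 RPM (median 3173) in GSCLC4, and its mean was the 21st and 15th highest of all genes. Ddx4, the germ cell RNA helicase also called Vasa, ran from 63.6 to 2319 RPM (median 889.8) in GSCLC1 and from 352 to 1799 RPM (median 952) in GSCLC4. The lowest Ddx4 value came from a GSCLC1 cell that stood far under the rest of its line, and every GSCLC cell was above the detection level for both genes. Gfra1, the GDNF receptor subunit that marks spermatogonial stem cells, was also above it in all 54 cells, and it ran from 36.8 to 682 RPM (median 216) in GSCLC1 and from 12.6 to 702 RPM (median 189) in GSCLC4. Its range was more than 10-fold wide in each line.

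The other pair of markers was not present in every cell. Hey1, a transcription factor of the Notch pathway, reached 5 RPM in 20 of 30 GSCLC1 cells (66.7%, exact 95% binomial interval 47.2 to 82.7%) and in 21 of 24 GSCLC4 cells (87.5%, interval 67.6 to 97.3%). It ran from 0 to 340.0 RPM (median 44.9) in GSCLC1 and from 0 to 273 RPM (median 89.2) in GSCLC4, so both lines held cells without detected Hey1 beside cells with ample Hey1. The medians in GSC1 and GSC2 were 0 and 0.557 RPM. Mest, a paternally expressed imprinted gene of the hydrolase family, reached 5 RPM in 23 of 30 (76.7%, interval 57.7 to 90.1%) and 21 of 24 cells (87.5%, interval 67.6 to 97.3%). It ran from 0 to 1975 RPM (median 55.4) in GSCLC1 and from 0 to 547 RPM (median 83.4) in GSCLC4. These intervals cover counting error over cells and not variation between cultures.

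**Figure D1:**
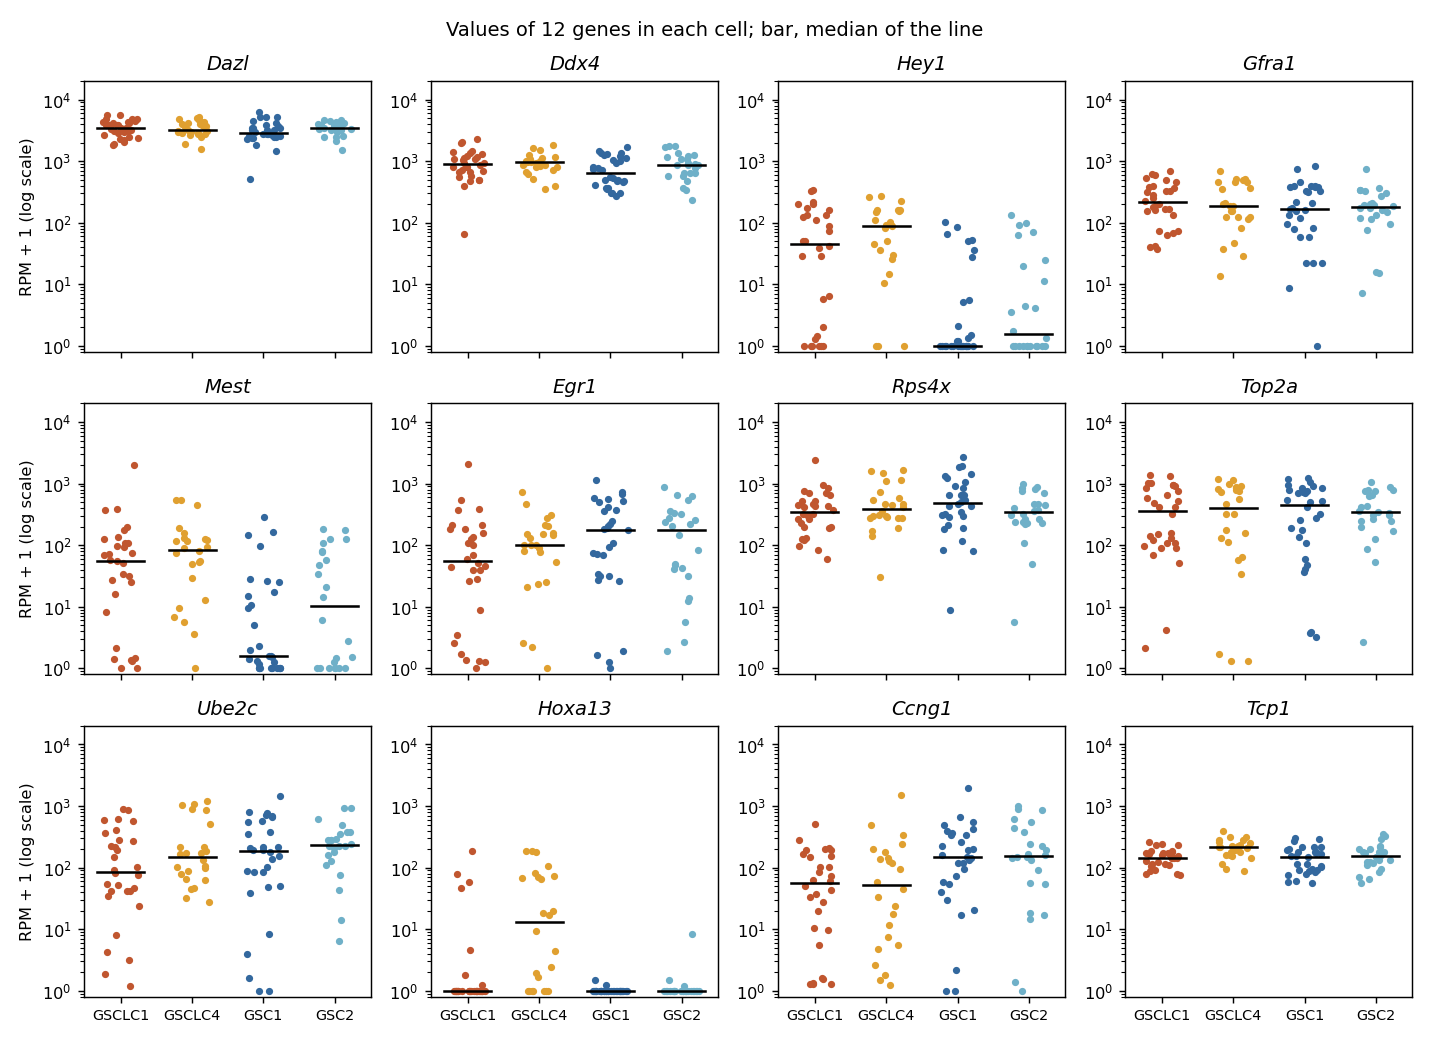
Values of 12 genes (RPM + 1, log scale) in each cell of the 4 lines, 1 point per cell, with a bar at the line's median. Dazl and the chaperonin subunit Tcp1 form tight bands, while Hey1, Mest, Egr1, Top2a, Ube2c and Hoxa13 reach from near 0 to high levels inside a single GSCLC line.

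The most abundant transcripts were those of protein synthesis. Among the genes of highest mean RPM over the 2 GSCLC lines were Eef1a1, the elongation factor that brings tRNA to the ribosome, and the ribosomal protein genes Rplp1, Rplp2, Rplp0, Rps12, Rpl32, Rps3a, Rps16 and Rps24. Eef1a1 ran from 5937 to 12383 RPM (median 9022) in GSCLC1 and from 4442 to 10603 RPM (median 7626) in GSCLC4, a range of little more than 2-fold in each. These genes have many near-identical copies in the genome, and between 20.4% and 90.7% of their values were not whole numbers of reads, so their levels are uncertain.

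Markers of other cell types were low. Of 16 Sertoli cell genes 7 reached 5 RPM in a GSCLC1 cell and 11 in a GSCLC4 cell, and their summed level ran from 2.51 to 1226 RPM (median 458) and from 80.4 to 1316 RPM (median 580). Several markers of other cell types were detected in some cells. The numbers of cells holding at least 5 RPM, GSCLC1 first, were 2 and 5 for Sox9 (Sertoli) and 11 and 13 for Col1a1 (fibroblast). They were 2 and 2 for Acta2 (peritubular) and 0 and 2 for Tnp1 (spermatid). For the blood and endothelium genes Ptprc and Pecam1 they were 1 and 4, and 3 and 1. Amh, Dhh and Fshr of the Sertoli list stayed under 5 RPM in all 54 cells. So did Cyp17a1 and Cyp11a1 of the Leydig list, Col3a1 and Lum of the fibroblast list, and Prm1, Prm2 and Acr of the spermatid list. A count of 0 in 54 cells allows a share of cells at this level of up to 5.56% (3 counts of the total), or 6.60% as the upper bound of the exact 95% binomial interval, and says nothing of lower expression. The summed level of 15 fibroblast and feeder genes was between 26.1 and 1049 RPM in GSCLC1 (median 271) and between 190.5 and 1250 RPM in GSCLC4 (median 544), of which Fn1, Lgals1, Vim and S100a6 made up most. Vim reached 5 RPM in 25 of 30 GSCLC1 cells and 24 of 24 GSCLC4 cells, and Fn1 in 26 and 23. Wt1, a Sertoli cell gene, reached 5 RPM in 5 of 30 GSCLC1 cells and in 12 of 24 GSCLC4 cells, with highest values of 152 and 114.4 RPM. Nanog was under 5 RPM in all 54 cells and Pou5f1 in 53 of them, whereas Sox2 was at or above it in 28 of 54 cells. Kit, the receptor of differentiating spermatogonia, was detected in 16 of 54 cells and Stra8, which is induced by retinoic acid, in 11 of 54. The part of such genes in the variation below was not tested.

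Variation was measured as the squared coefficient of variation (CV2, the variance over cells divided by the squared mean), which falls as the mean rises because few molecules are caught from low genes. A gene was therefore placed by its distance from the running median of CV2 over genes of like mean, on a log2 scale, so that a distance of 1 stands for 2 times the CV2 of similar genes. Genes averaging 10 RPM or more over a line's cells were examined, 8561 in GSCLC1 and 8960 in GSCLC4. Their median CV2 was 1.38 and 0.957, against 1.55 and 0.962 expected at the same means from the spike-in RNAs, which carry technical variation only. The median gene thus varied about as much as spike-in RNA of like level. CV2 was at least 2 times the spike-in fit for 396 genes in GSCLC1 (4.63%) and 944 in GSCLC4 (10.5%). By the same rule GSC1 had 528 (6.11%) and GSC2 493 (5.74%). The fit is a constant plus a term inverse to the mean. In GSCLC1 alone the constant came out negative and was set to 0, and the other term was fitted alone. The GSCLC1 count therefore rests on another form of fit than the counts of the other lines. At the other end, 12.5% of examined genes in GSCLC1 and 19.2% in GSCLC4 reached 5 RPM in every cell of the line.

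**Figure D2:**
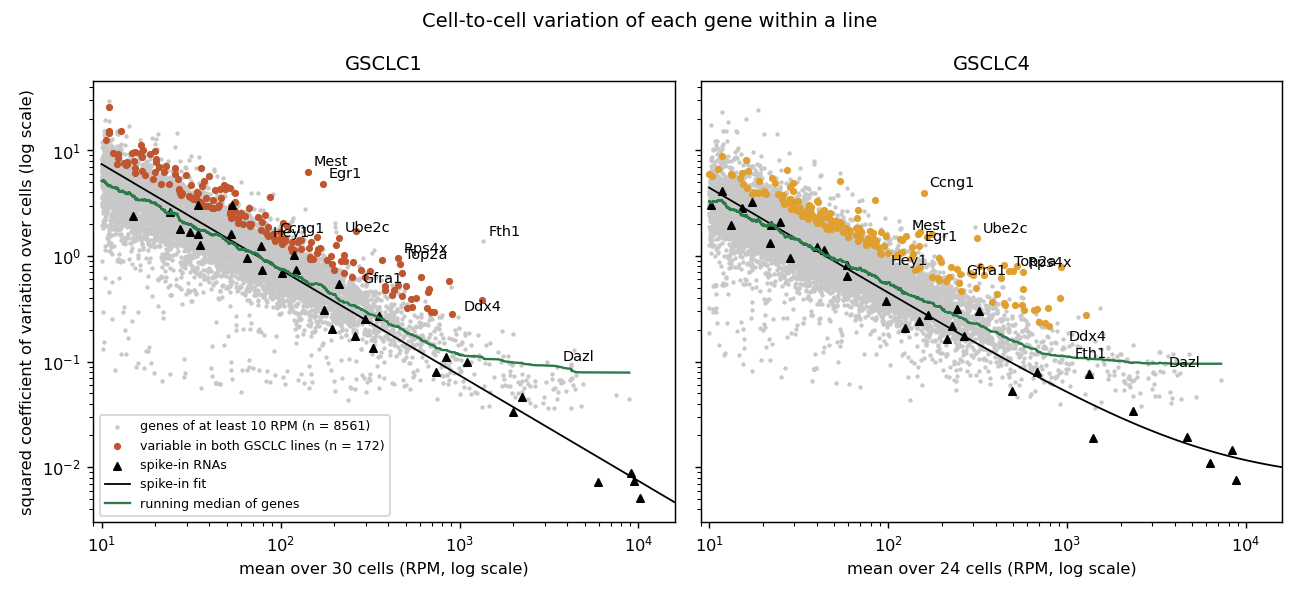
CV2 over cells (log scale) against the mean in RPM (log scale) for every examined gene of GSCLC1 (left, 30 cells) and GSCLC4 (right, 24 cells), with spike-in RNAs as triangles, the spike-in fit in black and the running median of genes in green. Coloured points are the genes called variable in both lines, which lie above the green line across the range of means.

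Genes were called variable in a line when their distance was among the largest 10%, which gives 856 genes in GSCLC1 and 896 in GSCLC4 (10.0% of the genes examined in each, by construction). In GSCLC1 the last gene inside this limit had a distance of 0.76 and the first outside also 0.76, and in GSCLC4 both were at 0.82, so genes just inside and just outside the limit have like values. The distances of the 8070 genes examined in both lines were related across genes (Pearson's r 0.550, Spearman's rho 0.394, and 0.398 and 0.345 over the 7341 genes whose values were whole reads). The libraries are separate, and genes are not independent points. The genes on both lists made up 20.1% of the GSCLC1 list, 19.2% of the GSCLC4 list and 2.13% of genes examined in both. Among genes examined in both lines, 9.21% were variable in GSCLC1 and 8.93% in GSCLC4.

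The genes that varied in both GSCLC lines often varied in the GSC lines too. Of those examined in all 4 lines, 60 (41.7%) were variable in GSC1, 59 in GSC2, 39 in both and 64 in neither. Over all genes examined in the 4 lines the shares were 7.75% for GSC1 and 8.55% for GSC2. Between a GSCLC line and a GSC line 1.88% to 2.19% of genes examined in both were shared, and between GSC1 and GSC2 2.26%, so 2.13% is within the range of the other pairs of lines.

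Among genes with whole-read values that reached 5 RPM in at least 20% of the cells of each line, the 20 with the largest smaller distance were of several kinds. Top2a and Ube2c belong to the G2/M list used below, and Pcna and Rrm1 to the S phase list. Kpna2, Tubb4b and Arl6ip1 are on neither. Egr1, Egr4, Id3 and Zic1 encode regulators of transcription. Hmgcs1 serves cholesterol synthesis, Slc2a3 glucose uptake, Pmaip1 cell death and Marveld2 tight junctions. Rps4x, Mest, Mbnl3, Atp2b4 and Hnrnph1 complete the set. With each gene's highest cell left out, 2.35% of genes were variable in both lines, and 90 of the shared genes (52.3%) were among them. This kept 17 of the 20 named genes and lost Pmaip1, Mbnl3 and Slc2a3.

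**Figure D3:**
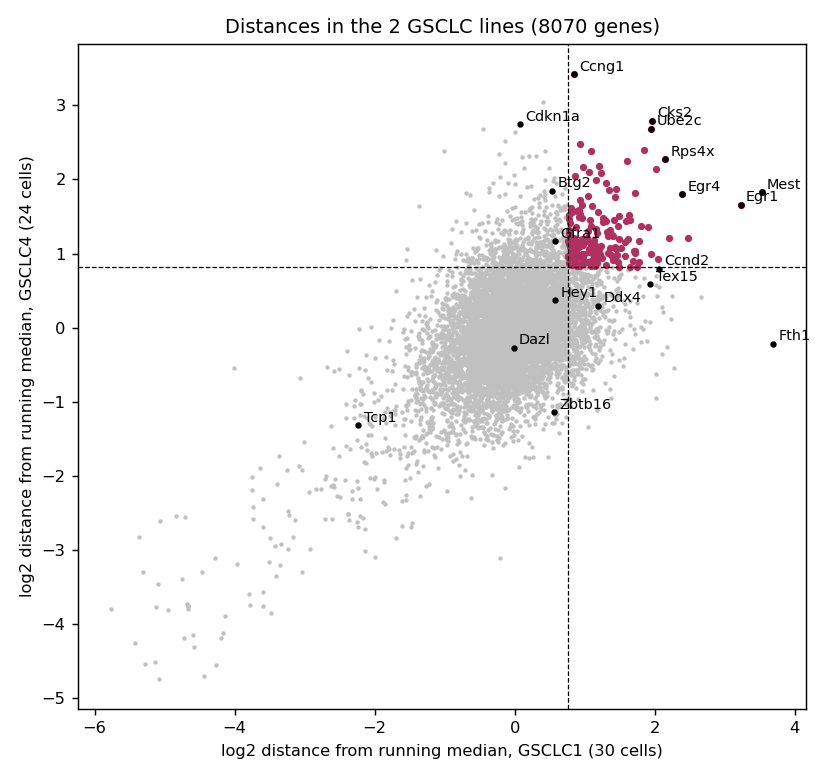
Log2 distance from the running median in GSCLC1 (x axis, 30 cells) against GSCLC4 (y axis, 24 cells) for the 8070 genes examined in both, with dashed lines at the limit of the largest 10% and the genes beyond both limits in colour. Cks2, Ube2c, Rps4x, Mest and Egr1 lie far out on both axes, Fth1 on the GSCLC1 axis alone and Cdkn1a on the GSCLC4 axis alone.

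Genes of the G2 and M phases of the cell cycle were the list with the most members variable in both lines. Counts for a list are over its members examined in both lines. Of 34 such G2/M genes, 13 were variable in GSCLC1 (38.2% against 9.21% of all genes) and 24 in GSCLC4 (70.6% against 8.93%). In both lines 10 were variable (29.4% against 2.13%). The list's median distances were 0.45 and 1.07, where the medians of all genes were -0.02 in each line. The 10 genes are Top2a, which untangles DNA before division, Ccnb1, Ccnb2 and Ccna2 (cyclins), Cdc20 and Ube2c, with which the anaphase-promoting complex marks cyclins for destruction, Cenpa (centromeric histone), Nusap1 (spindle assembly), Mki67 (the proliferation antigen Ki-67) and Cks2 (a cyclin-dependent kinase subunit). The summed level of the list went from 1475 to 11161 RPM over GSCLC1 cells and from 704 to 17380 RPM over GSCLC4 cells.

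Single genes covered a still wider range. Top2a ran from 1.15 to 1390.1 RPM (median 363) in GSCLC1 and from 0.316 to 1193 RPM (median 396) in GSCLC4, was under 5 RPM in 2 and 3 cells, and had distances of 2.02 and 2.15, that is, 4.05 and 4.42 times the CV2 of similar genes. Ube2c ran from 0.201 to 907 RPM (median 85.0) in GSCLC1 and from 27.2 to 1207 RPM (median 148) in GSCLC4, with distances of 1.95 and 2.68. All GSCLC4 cells held Ube2c, while the lowest GSCLC1 cells were near 0. Kpna2, an importin that carries proteins into the nucleus, was found in every cell but ran from 148 to 1692 RPM (median 509) and from 183.2 to 2238 RPM (median 734), with distances of 1.73 and 1.82. Tubb4b, a beta-tubulin, ran from 163.7 to 1743 RPM (median 512) and from 7.29 to 1674 RPM (median 356), with distances of 1.60 and 2.25. Ccnb1 and Cks2 had distances of 1.85 and 2.40 and of 1.96 and 2.79, but 44.4% and 77.8% of their values were not whole reads, so reads shared with near-identical copies may contribute and their values are uncertain.

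The G2/M genes moved together across cells. The median Spearman correlation between pairs of examined list members was 0.323 in GSCLC1 and 0.504 in GSCLC4, where the median over all examined pairs was 0.008 and 0.016. Ube2c and Ube2s, both ubiquitin-conjugating enzymes of the anaphase-promoting complex, had rho 0.693 over GSCLC1 cells and 0.752 over GSCLC4 cells. By the smaller of its 2 correlations, the genes most like Top2a among 8070 were Hnrnpab (0.683), Ccnb1 (0.665) and Ube2s (0.652). For Ube2c they were Ube2s (0.693), Ccnb1 (0.689) and Arl6ip1 (0.648), for Kpna2 Nusap1 (0.608), Top2a (0.559) and Tpx2 (0.550), and for Tubb4b Cdca8 (0.645), Ube2s (0.643) and Ube2c (0.618). The values of 1 cell share its library and depth, so these correlations are descriptions.

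The promoters of these genes are shown because the list's members move together and because a CCAAT box and a cell cycle genes homology region (CHR) are known elements of promoters active in G2 and M. In the 250 bases upstream of each start (RefSeq, GRCm38.p6, given 5′ to 3′ on the gene's strand), capitals mark CCAAT or its reverse ATTGG, and the CHR sequence TTTGAA or its reverse TTCAAA. Where 2 matches overlap, as in Ube2c, the capitals run together. Nusap1 is shown as a variable G2/M gene whose window holds neither.
Top2a, chr11:99024190-99024439, minus strand: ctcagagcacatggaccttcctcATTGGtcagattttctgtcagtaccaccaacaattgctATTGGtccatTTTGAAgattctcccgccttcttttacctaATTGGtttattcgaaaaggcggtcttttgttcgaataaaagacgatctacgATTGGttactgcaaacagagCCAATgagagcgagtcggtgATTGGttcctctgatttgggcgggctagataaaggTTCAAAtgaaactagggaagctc
Ube2c, chr2:164769679-164769928, plus strand: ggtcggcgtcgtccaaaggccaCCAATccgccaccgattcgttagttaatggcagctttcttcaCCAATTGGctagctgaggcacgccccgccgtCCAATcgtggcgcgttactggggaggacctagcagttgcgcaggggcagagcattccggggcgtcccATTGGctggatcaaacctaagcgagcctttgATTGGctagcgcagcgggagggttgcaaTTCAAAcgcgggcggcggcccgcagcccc
Ccnb2, chr9:70421555-70421804, minus strand: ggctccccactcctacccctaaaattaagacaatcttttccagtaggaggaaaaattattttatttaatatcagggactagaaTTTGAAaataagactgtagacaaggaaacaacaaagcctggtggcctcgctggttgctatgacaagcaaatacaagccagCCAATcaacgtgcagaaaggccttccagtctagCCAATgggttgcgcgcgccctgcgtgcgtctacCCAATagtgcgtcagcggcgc
Cdc20, chr4:118437344-118437593, minus strand: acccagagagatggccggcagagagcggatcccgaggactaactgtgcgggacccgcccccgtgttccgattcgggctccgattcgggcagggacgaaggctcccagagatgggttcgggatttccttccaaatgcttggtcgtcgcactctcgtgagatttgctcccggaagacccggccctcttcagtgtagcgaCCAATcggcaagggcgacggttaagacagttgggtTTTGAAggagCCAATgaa
Mki67, chr7:135716380-135716629, minus strand: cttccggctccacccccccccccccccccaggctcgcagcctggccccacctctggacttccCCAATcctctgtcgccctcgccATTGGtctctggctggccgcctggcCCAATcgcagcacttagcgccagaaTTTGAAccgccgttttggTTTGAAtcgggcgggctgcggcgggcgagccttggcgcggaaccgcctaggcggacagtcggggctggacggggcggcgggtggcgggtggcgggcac
Nusap1, chr2:119618048-119618297, plus strand: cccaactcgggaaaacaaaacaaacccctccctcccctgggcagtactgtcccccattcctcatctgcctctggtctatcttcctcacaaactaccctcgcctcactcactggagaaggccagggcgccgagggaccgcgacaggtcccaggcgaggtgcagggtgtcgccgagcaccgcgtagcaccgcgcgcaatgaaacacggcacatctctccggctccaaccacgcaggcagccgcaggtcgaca

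Of the 34 examined G2/M genes, 31 matched a RefSeq promoter, and 26 of them (83.9%) held a CCAAT sequence on either strand, 11 (35.5%) a CHR sequence and 10 (32.3%) both. Among all 27025 genes with a promoter window the shares were 37.5%, 18.3% and 6.45%, and among genes examined in both lines 42.2%, 12.3% and 4.96%. Top2a held 6 CCAAT and 2 CHR matches, Ube2c 6 and 1, Ccnb2 3 and 1, Cdc20 2 and 1, and Mki67 3 and 2. Of the other G2/M genes variable in both lines, Ccnb1, Cenpa and Cks2, whose windows are not printed, each held 2 CCAAT and 0 CHR matches, so the printed set leans to promoters with both. The CCAAT share was also high for lists other than G2/M, at 8 of 10 p53 response genes and 10 of 10 cholesterol genes, and it was 8 of 22 for ribosomal protein genes. The CHR share was 2 of 10, 0 of 10 and 1 of 22 in the same order. A match is a string of letters and not a shown binding site.

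S phase genes were the next list. Of 25 examined members, 5 were variable in GSCLC1 (20.0% against 9.21% of all genes), 13 in GSCLC4 (against 8.93% of all genes) and 5 in both (20.0% against 2.13%), with median distances of 0.36 and 0.83. Among the 5 are Pcna (the sliding clamp of DNA polymerase), Mcm2 (replicative helicase), Rrm1 (ribonucleotide reductase) and Slbp (histone mRNA processing). Mcm2 was not called in GSCLC1 without GSCLC1_MS094_153, without each gene's highest cell or with the SD of log2 values, and Rrm1 was not called there with the SD. Pcna ran from 18.7 to 1526 RPM (median 437) in GSCLC1 and from 75.3 to 1432 RPM (median 490.1) in GSCLC4. Rrm1 ran from 59.1 to 1333 RPM (median 348) and from 3.44 to 1297 RPM (median 265). Pcna was detected in all cells of both lines, so its variation is in degree. The mean log level of the S phase list and that of the G2/M list had rho -0.017 over GSCLC1 cells and 0.493 over GSCLC4 cells.

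**Figure D4:**
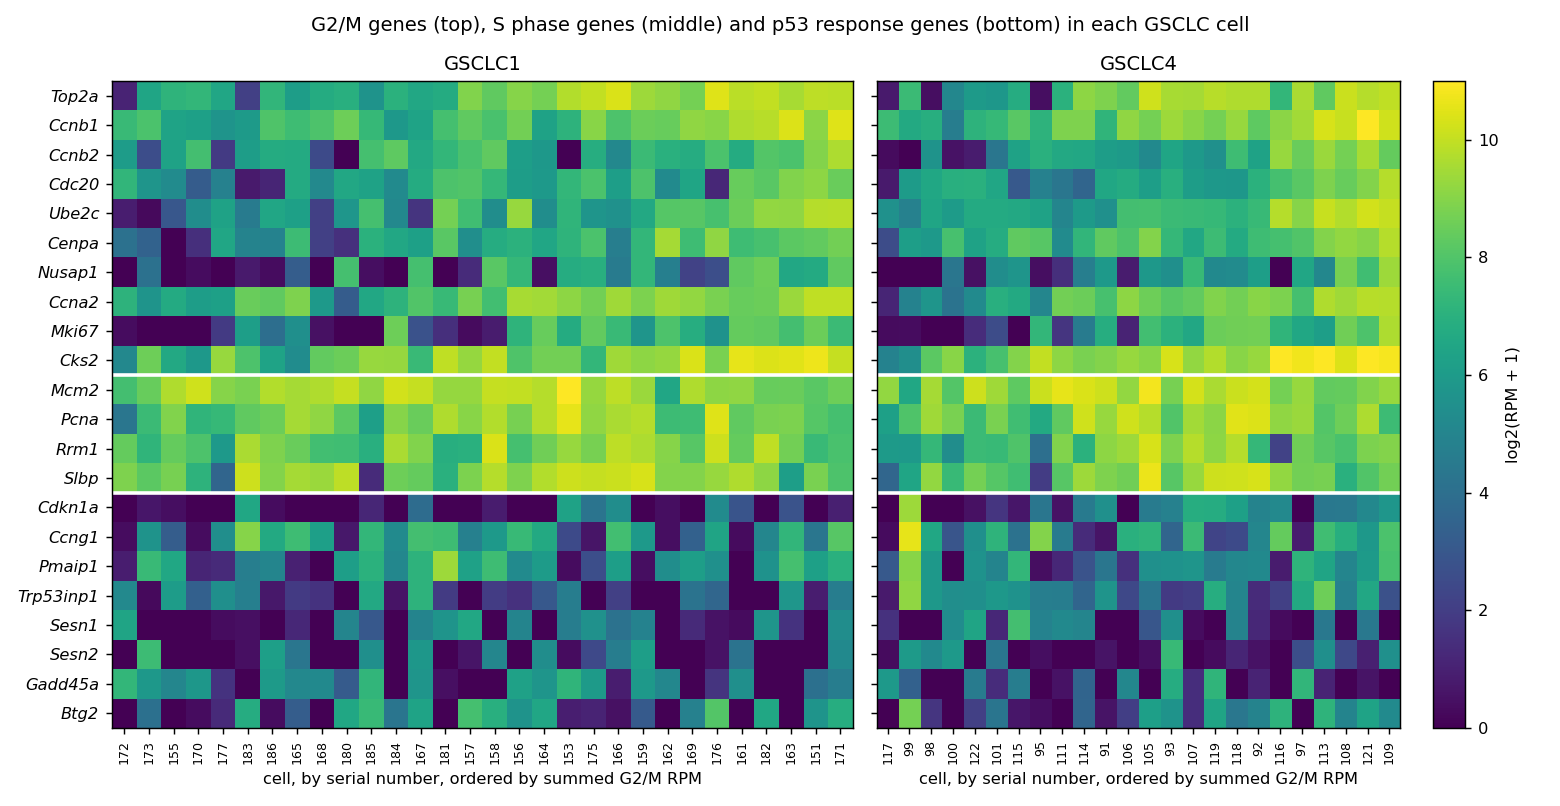
Level, as log2(RPM + 1) in colour, of the 10 G2/M genes and 4 of the S phase genes variable in both GSCLC lines and of 8 p53 response genes variable in GSCLC4 (rows, top to bottom), in each GSCLC1 cell (left) and GSCLC4 cell (right), ordered from low to high by the summed RPM of the whole G2/M list. The G2/M rows brighten together from left to right, and GSCLC4_MS094_099, the second from the left, is the brightest of its line for Cdkn1a, Ccng1, Pmaip1, Trp53inp1 and Btg2.

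The genes variable in a line were also analysed jointly. G2/M genes were already frequent among them, so the components are a description and no separate support. In GSCLC1 the first 3 components held like shares, the third 5.17%. The first principal component held 6.12% of the variance in GSCLC1 and 9.99% in GSCLC4, and the second 5.47% and 6.98%. It had rho 0.685 and 0.885 with the mean level of the G2/M list and 0.252 and 0.670 with that of S phase. The 13 and 24 G2/M members that entered all loaded with the sign of Top2a. Of the 15 largest loadings of that sign in GSCLC4, 7 were of genes on the G2/M or S phase list (Top2a, Kif23, Birc5, Bub1b, Cenpe, Nusap1 and Dtl), and others were Esco2, Neil3 and Prim1. In GSCLC1 2 of the 15 were on these lists, Mki67 and Cdca3, which led a set with Kank3, Tuft1, Hnrnph1, Cyp51 and Mest. On the opposite side were Sh3bp4, Commd6 and Klf8 in GSCLC1 and Abcb1b, Gls2 and Phc3 in GSCLC4. The G2/M level had rho -0.713 with spike-in RPM over GSCLC1 cells and -0.130 over GSCLC4 cells. In GSCLC1, cells high in G2/M genes thus tended to have lower spike-in RPM. Its part in the result was not tested.

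Genes of the p53 response varied in GSCLC4. Of 13 examined members 8 were variable there (61.5% against 8.93% of all genes) and 2 in GSCLC1 (15.4% against 9.21%). The median distances were 0.94 in GSCLC4 and -0.14 in GSCLC1. Both genes variable in GSCLC1, Ccng1 and Pmaip1, were variable in both lines (15.4% against 2.13%). The 8 are Cdkn1a (the p21 inhibitor of cyclin-dependent kinases), Ccng1, Pmaip1 (the cell death protein Noxa), Trp53inp1, Sesn1, Sesn2, Gadd45a and Btg2, all known targets of p53. The highest values came from 1 cell, GSCLC4_MS094_099, called cell 99 here. In it the 20 genes of the list summed to 5541 RPM, where the next cell of the line (GSCLC4_MS094_113) had 1415 and the median was 649. Ccng1 was 1525 RPM in cell 99, 495 in the next and 50.7 at the median of GSCLC4, and Cdkn1a was 667 RPM against 114.1 and 21.5. Pmaip1 was 534 RPM against 219 and 35.0.

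Cell 99 was the highest of its line for 7 of the 13 genes. The same cell had the lowest summed S phase level of GSCLC4, 1461 RPM against a median of 4803, and the second lowest G2/M level, 732 RPM against a median of 5669. It had 3571208 reads and 9993 detected genes, its spike-in level was 29490 RPM, and its median correlation with the other cells of the line was the lowest, 0.449 where the line's highest was 0.553. Without it, 5 of 13 genes (Ccng1, Trp53inp1, Sesn1, Sesn2 and Gadd45a) were variable in GSCLC4, with a median distance of 0.49, and Ccng1 alone was variable in both lines. With the SD of log2 values as the measure, 3 of 13 were variable in GSCLC4 (Cdkn1a, Ccng1 and Btg2), beside 880 of all 8070 genes. The next highest values show that other cells also differed: without the highest cell of each gene, Ccng1 kept a distance of 1.83 and Trp53inp1 of 1.73, while Cdkn1a fell to 0.30. In GSCLC1 the list's highest sum was 1365 RPM in GSCLC1_MS094_183.

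**Figure D5:**
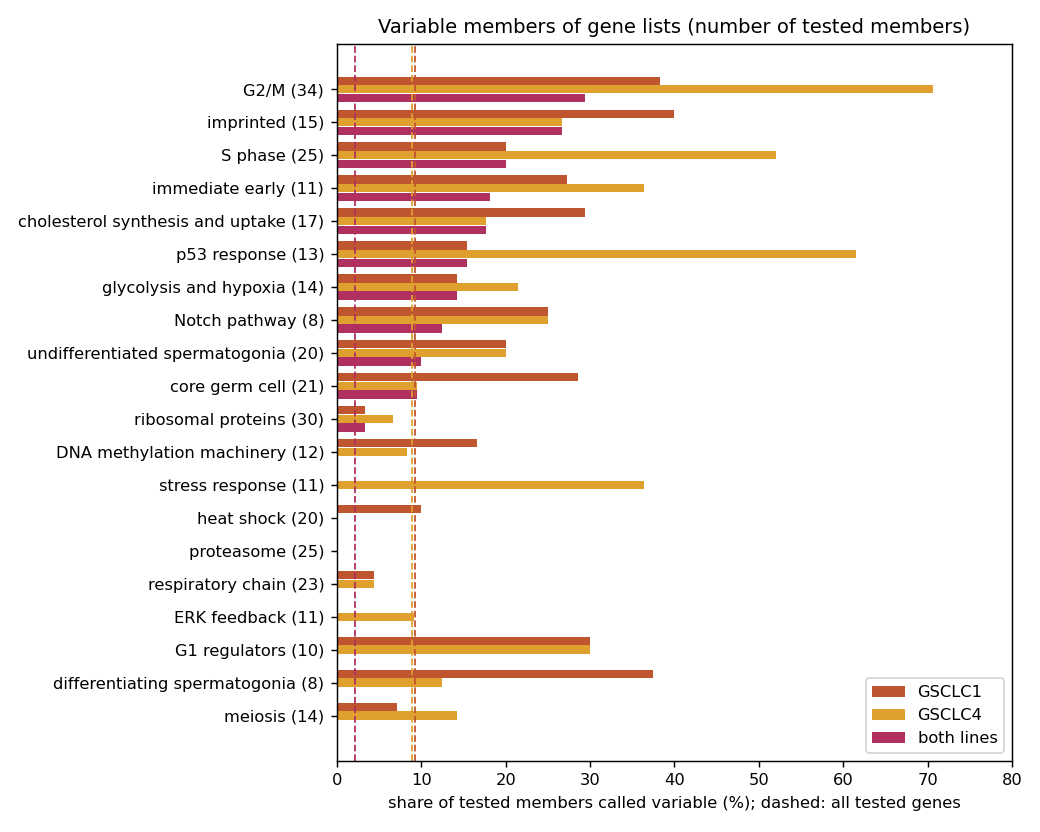
Share of each list's examined members called variable in GSCLC1, in GSCLC4 and in both lines (bars, in percent), for lists of at least 8 examined members, whose number is in brackets. Dashed lines give the shares over all 8070 genes examined in both lines (9.21%, 8.93% and 2.13%). G2/M has the longest bar for both lines, and proteasome genes have none.

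Among imprinted genes 6 of 15 examined members were variable in GSCLC1 (40.0% against 9.21% of all genes), 4 in GSCLC4 (26.7% against 8.93%) and 4 in both (26.7% against 2.13%): Mest, Igf2 (a growth factor), Impact (a regulator of translation) and Kcnq1ot1 (a long non-coding RNA). Igf2 ran from 0 to 513 RPM (median 22.1) in GSCLC1 and from 0 to 355 RPM (median 38.8) in GSCLC4 and reached 5 RPM in 18 cells of each line, and it was not called in GSCLC4 without cell 99. Without each gene's highest cell Igf2 and Kcnq1ot1 left the shared set, and with the SD of log2 values Impact and Kcnq1ot1 did, while Gnas entered it in both cases. Mest had distances of 3.53 and 1.83. Its GSCLC1 value rests in large part on GSCLC1_MS094_153, at 1975 RPM where the next cell had 393, and without each gene's highest cell the distances were 1.04 and 1.85. Mest then still passed in both lines. The genes most like Mest were Pum2 (smaller rho 0.524), Pramel3 (0.491) and Lonrf3 (0.464). The mean level of the imprinted list had rho 0.598 with that of G2/M genes over GSCLC1 cells and 0.087 over GSCLC4 cells.

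Immediate early genes, transcribed within minutes of a signal without new protein, varied in part. Of 11 examined, 3 were variable in GSCLC1 (27.3% against 9.21% of all genes), 4 in GSCLC4 (36.4% against 8.93%), and Egr1 and Egr2 in both (18.2% against 2.13%). Egr1 ran from 0 to 2066 RPM (median 54.8) in GSCLC1 and from 0 to 740.4 RPM (median 99.1) in GSCLC4, and 7 and 3 cells were under 5 RPM. GSCLC1_MS094_153 held the highest GSCLC1 value, the next being 535 RPM, and without the highest cell the distances of 3.23 and 1.66 became 1.34 and 1.10. Egr2, which GDNF is known to induce in spermatogonial stem cells, ran from 0 to 408 RPM (median 22.1) and from 0 to 366 RPM (median 31.7). Egr4, a relative of Egr1 in the same zinc finger family, ran from 0.617 to 1739.6 RPM (median 123) in GSCLC1 and from 66.3 to 1414 RPM (median 346) in GSCLC4, with distances of 2.39 and 1.80. All 24 GSCLC4 cells held Egr4 and 27 of 30 GSCLC1 cells did. Egr1 and Egr4 had rho 0.034 and 0.009 over the cells of the 2 lines, which gives no common order of the cells. The genes most like Egr4 were Twf1 (smaller rho 0.435), the germ cell transcription factor Dmrt1 (0.411) and Aplf (0.398).

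Cholesterol synthesis and uptake genes had 5 variable members of 17 in GSCLC1 (29.4% against 9.21% of all genes) and 3 in GSCLC4 (17.6% against 8.93%). The 3 were variable in both lines (17.6% against 2.13%), and Hmgcs1 and Cyp51, enzymes of the pathway, are among them. Hmgcs1 ran from 0.633 to 1103 RPM (median 140.2) in GSCLC1 and from 4.62 to 819.6 RPM (median 220.1) in GSCLC4, with distances of 1.63 and 1.53. Among its closest genes were Map3k12 (smaller rho 0.450) and Gbas (0.421), while Hmgcs1 and Cyp51 had rho of 0.090 and 0.292. The median pair correlation of the list was 0.086 in GSCLC1 and 0.207 in GSCLC4, below that of the G2/M genes in each line. With each gene's highest cell left out, or with the SD of log2 values, 1 of the 17 was variable in both lines.

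Hox genes, which pattern the body axis, were mostly low. Of 36, 4 were examined in both lines, and Hoxa10 and Hoxa13 were variable in both. These are 50% of the 4, against 9.21% of all genes in GSCLC1, 8.93% in GSCLC4 and 2.13% in both, but 4 members are few. The most widely detected was Hoxb7, at 5 RPM or more in 17 of 30 and 18 of 24 cells, with distances of -0.11 in each line. Hoxa13 reached 5 RPM in 4 of 30 GSCLC1 cells (13.3%, interval 3.76 to 30.7%) and 13 of 24 GSCLC4 cells (54.2%, interval 32.8 to 74.4%), with highest values of 184.9 and 185.9 RPM. Hoxa10 reached it in 4 of 30 and 12 of 24 cells, with highest values of 180.6 and 234 RPM. Their mutual rho was 0.304 and 0.311. In both GSC lines the mean of each was under 10 RPM. Hoxa13 was not called in GSCLC1 with the highest cell of each gene left out, and neither gene was called there with the SD of log2 values.

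Of 21 core germ cell genes, 6 were variable in GSCLC1 (Ddx4, Mael, Tdrd1, Tex15, Nxf2 and Dppa4) and 2 in GSCLC4 (Tdrd1 and Nxf2), or 10 and 5 with the SD of log2 values. The shares by CV2 are 28.6% and 9.52%, against 9.21% and 8.93% of all genes, so by CV2 the GSCLC4 count is at the level of any gene. Tdrd1 and Nxf2, variable in both lines, make up 9.52% against 2.13% of all genes. Without each gene's highest cell, Nxf2 alone was variable in both. With the SD, 853 and 880 of all 8070 genes were variable in GSCLC1 and GSCLC4, lower shares than those of the list. Nxf2, an X-linked RNA export factor, ran from 7.68 to 1128 RPM (median 405) and from 54.1 to 1092 RPM (median 456). Tdrd1, a Tudor protein of the piRNA pathway, ran from 0.921 to 1049 RPM (median 212) and from 1.62 to 724 RPM (median 188). Tex15, needed in piRNA-guided silencing, had a distance of 1.94 in GSCLC1, where GSCLC1_MS094_177 was at 1777 RPM and the next at 653, and of 0.58 in GSCLC4. Ddx4 had distances of 1.19 and 0.29, and Dazl lay on the running median with -0.01 and -0.27. The difference between the lines was not tested, since each is 1 culture.

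Genes of undifferentiated spermatogonia had 4 variable members of 20 in each line (20.0% against 9.21% and 8.93% of all genes). Gfra1 was variable in GSCLC4 with a distance of 1.17 and not in GSCLC1 (0.58), as was Lhx1, a GDNF-induced transcription factor (1.52 and 0.34). Ccnd2, the cyclin D2 of the G1 phase, was variable in GSCLC1 alone, where it ran from 122.5 to 3053 RPM (median 822) with a distance of 2.06. In GSCLC4 it ran from 379.5 to 1974 RPM (median 766), with a distance of 0.79, just under the limit. Tspan8, a tetraspanin of the stem cell surface, was variable in both and ran from 0 to 317 RPM (median 5.56) and from 0 to 381 RPM (median 39.8). Without each gene's highest cell, 5 members were variable in GSCLC1 and 2 in GSCLC4. The 2 were Gfra1 and Egr2, so Lhx1 and Tspan8 were not called in GSCLC4 in that setting. Zbtb16 (PLZF), a factor needed for stem cell renewal, ran from 0.265 to 358 RPM (median 32.2) in GSCLC1 and from 13.6 to 176.7 RPM (median 66.6) in GSCLC4, with distances of 0.57 and -1.14. Every GSCLC4 cell was above 10 RPM of Zbtb16, and 3 GSCLC1 cells were under 5 RPM. Gfra1 and Hey1 had rho -0.072 and -0.242.

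Other lists were small or gave few genes, and their counts are to be read against 9.21% of all genes in GSCLC1 and 8.93% in GSCLC4. Hes1, a Notch target, was variable in both lines and ran from 0 to 551 RPM (median 85.1) and from 0 to 394 RPM (median 40.5). Hey1, with distances of 0.58 and 0.37, was variable in neither by CV2. It was variable in both with the SD of log2 values, and in GSCLC1 with the highest cell of each gene left out. Pgk1 and Slc2a3 of glucose use were variable in both, and without GSCLC1_MS094_153 neither was called in GSCLC1. Slc2a3, a glucose transporter, ran from 0 to 879 RPM (median 106.2) in GSCLC1 and from 0.292 to 819 RPM in GSCLC4. Ifitm1, a gene of early germ cells, ran from 0 to 709 RPM (median 2.73) and from 0 to 321 RPM (median 38.5). It was variable in both lines, but not in GSCLC4 without each gene's highest cell. Sox2, Klf5 and Dppa4 of the pluripotency list were variable in GSCLC1 and none of its 6 examined members in GSCLC4, but these calls depend on the setting. Sox2 was variable in both lines without cell 99, without each gene's highest cell and with the SD of log2 values. Klf5 was not called in GSCLC1 without GSCLC1_MS094_153. Stress response genes had 0 of 11 in GSCLC1 and 4 in GSCLC4 (Asns, Sesn2, Herpud1 and Aldh18a1). Differentiating spermatogonial genes had 3 of 8 in GSCLC1 (Dnmt3b, Dmrt1 and Crabp1) and Rec8 in GSCLC4, and these calls also depend on the setting. Without each gene's highest cell none of them held, and Dmrtb1 was called in GSCLC1 and Dmrt1 in GSCLC4 instead. With the SD of log2 values Dmrt1 alone was called, in both lines. Dmrt1 was not called in GSCLC1 without GSCLC1_MS094_153. In several lists the counts were near those shares, so they say nothing particular of the lists. Meiosis genes had 1 and 2 of 14, DNA methylation genes 2 and 1 of 12, ERK feedback genes 0 and 1 of 11, and heat shock genes 2 and 0 of 20. G1 regulators had 3 of 10 in each line, with none in common.

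Id3, which encodes an inhibitor of DNA binding by other factors, ran from 0 to 927 RPM (median 83.5) in GSCLC1 and from 0 to 305 RPM (median 20.8) in GSCLC4, with distances of 1.47 and 1.37. Zic1 ran from 0.307 to 819 RPM (median 163.8) and from 0.28 to 794 RPM (median 150.4). Marveld2, which encodes the junction protein tricellulin, ran from 0.308 to 813 RPM (median 161.4) and from 0.243 to 644 RPM (median 139.9), and Ocln, the gene of the related junction protein occludin, was among the 3 genes most like it (rho 0.480 and 0.565). Hnrnph1, a splicing factor, ran from 0.315 to 1014 RPM (median 257) and from 6.59 to 766 RPM (median 179). Arl6ip1 ran from 6.06 to 1043 RPM (median 191) and from 22.98 to 1007 RPM (median 209). The calcium pump gene Atp2b4 and the splicing regulator gene Mbnl3 were instead undetected in many cells, with 12 and 13 cells and 14 and 5 cells at 5 RPM or more in the 2 lines.

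Ribosomal protein genes varied little apart from Rps4x. All 30 were above 5 RPM in each of the 54 cells, and their median distances were -0.55 in GSCLC1 and -0.28 in GSCLC4. In GSCLC1 1 was variable, in GSCLC4 2, and Rps4x in both. These are 3.33%, 6.67% and 3.33% of the list, against 9.21%, 8.93% and 2.13% of all genes. Rps4x, the X-linked gene of ribosomal protein S4, had the largest smaller distance of the named genes variable in both lines, 2.15 and 2.27. It ran from 59.7 to 2420.0 RPM (median 349) in GSCLC1 and from 28.9 to 1689 RPM (median 385) in GSCLC4, 1.85% of its values were not whole reads, and in GSC1 and GSC2 its distances were 2.37 and 1.12. Cell GSCLC1_MS094_185 was at 2420.0 RPM and the next at 937, and without the highest cell the distance was 0.94, still within the largest 10%. The 30 genes had a median pair correlation of 0.245 and 0.390, whereas the genes most like Rps4x were Sdc4 (smaller rho 0.413), Spire1 (0.399) and Aqr (0.394). Rps4x and Top2a had rho -0.382 and -0.659, so cells high in Rps4x tended to be low in Top2a in both lines. The mean level of the whole ribosomal protein list had rho -0.160 with that of the G2/M list over GSCLC1 cells and -0.688 over GSCLC4 cells.

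Rps4x is 1 of 13 X-linked genes variable in both lines, out of 332 X-linked genes examined in both lines (3.92%, against 2.13% of all genes). In GSCLC1 52 of 353 X-linked genes were variable (14.7%) and in GSCLC4 55 of 387 (14.2%), against 10.0% of genes in each. In GSC1 and GSC2 the shares were 15.9% and 16.4%. Some autosomes had like shares, with 15.9% for chromosome 18 in GSCLC4, 13.1% for chromosome 14 in GSCLC1 and 16.3% for chromosome 13 in GSC1. For genes variable in both GSCLC lines, chromosomes 16 and 18 each had 3.05%. The X-linked genes variable in both lines include Nxf2, Mageb4, Mbnl3 and Tmsb4x. Mageb4, a gene of the MAGE family active in germ cells, ran from 3.07 to 1383 RPM (median 608) and from 65.1 to 1366 RPM (median 722).

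Genes at the steady end were examined in the same way. Among 1980 genes averaging 100 RPM or more in both lines, the 10 of lowest variation were all predicted genes of the Gm series with 61.1% to 98.1% of values not whole reads, as reads divided among near-identical copies would give, and they are uncertain. With whole-read genes alone, a set chosen after these values were seen, the steadiest were Tcp1 (a chaperonin subunit), Atp5e, Sdhc and Uqcr11 (respiratory chain and ATP synthase), Hspa9 (mitochondrial chaperone), Psme3 and Psmd11 (proteasome), Snx3, Mast2 and Alkbh5. Tcp1 ran from 74.4 to 261 RPM (median 144.4) in GSCLC1 and from 87.8 to 390.0 RPM (median 212) in GSCLC4, with CV2 of 0.213 and 0.402 times that of similar genes and 0.228 and 0.546 times the spike-in fit. No proteasome gene of 25 was variable in either line, against 9.21% of all genes in GSCLC1 and 8.93% in GSCLC4. Of the 25, 15 were above 5 RPM in all 54 cells, and the median distances of the list were -0.38 and -0.40. Of 23 respiratory chain genes, Cox5a was variable in GSCLC1 and Atp5b in GSCLC4 (4.35% in each line). By comparison 925 of the 8070 genes (11.5%) were above 5 RPM in all 54 cells.

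Some genes varied in 1 line and lay below the running median in the other, 220 for GSCLC1 and 189 for GSCLC4, and most of those named here had a single very high cell. Among the 5 with the largest distance in GSCLC1 were Fth1 (ferritin heavy chain, which stores iron), Coro7, Shisa5 and LOC100862362. Fth1 was 9599 RPM in GSCLC1_MS094_153, 1951 in the next cell and 1029 at the median, and without the highest cell its distance went from 3.69 to 0.46. Coro7 went from 2.28 to 0.36 and Shisa5 from 2.18 to 0.66. In GSCLC4 the 5 were Zfp12, Pmm1, Txnip, Trp53inp1 and Cgnl1. Pmm1, Txnip and Trp53inp1 were highest in cell 99, at 500.3, 1253 and 575 RPM, with next values of 74.7, 557 and 379. Zfp12 went from 2.69 to 0.06, Pmm1 from 2.38 to -0.30 and Cgnl1 from 2.06 to 0.02 without the highest cell, whereas Txnip and Trp53inp1 kept 1.07 and 1.73.

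Cells contributed unequally to these maxima. GSCLC1_MS094_153 was the highest cell of GSCLC1 for 524 examined genes (6.12%) and for 12.6% of the variable ones, where an equal share would be 3.33%, and it was highest for Mest, Egr1, Hmgcs1, Fth1, Pcna and Mcm2. It also held the line's highest spike-in level, 7535 detected genes, the highest summed S phase level (12485 RPM, next 8765) and the highest summed immediate early level (2848 RPM, next 1232). In GSCLC4, the cells GSCLC4_MS094_095 and GSCLC4_MS094_117 were highest for 687 and 623 genes (7.67% and 6.95%, where an equal share would be 4.17%), at 61328 and 63863 RPM of spike-in RNA. The number of genes for which a cell was highest had rho 0.825 with its spike-in RPM over GSCLC1 cells and 0.637 over GSCLC4 cells. The part of spike-in level in the variation was not tested. Leaving out GSCLC1_MS094_153 kept 89.0% of the genes variable in both lines among them, and leaving out GSCLC4_MS094_099 kept 91.3%.

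The last comparison asked whether genes vary more, or less, in the GSCLC lines than in the GSC lines, with the line as the replicate (2 against 2) and the distance as the value. Of 7446 genes examined in all 4 lines, none varied more in the GSCLC lines and 2 varied less (0.0269%) by limma with Benjamini-Hochberg adjustment, and 375 (5.04%) had an unadjusted p under 0.05. S100a6, a calcium-binding protein, had distances of 0.07 and 0.45 in GSCLC1 and GSCLC4 against 5.80 and 1.43 in GSC1 and GSC2 (difference -3.35, SE 0.648, limma adjusted p = 0.0247). It ran from 0 to 218 RPM (median 27.1) and from 0 to 218 RPM (median 22.8) in the GSCLC lines, and up to 9592 RPM in GSC1, in the cell that stands apart (median 86.4). Without that cell, whose 15 fibroblast and feeder genes summed to 56472 RPM, the adjusted p was 0.234. Gm15097, an X-linked predicted gene, had -3.60 and -3.56 against -0.81 and -0.22 (difference -3.07, SE 0.467, limma adjusted p = 5.2e-04), and 88.7% of its values were not whole reads, so it is uncertain.

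The count of genes past the threshold went from 0 to 28 over the other settings and lines left out, so it is not a stable number. The genes of lowest p on the higher side, none past the threshold, were Rab3ip, Eif3k, Purb, Ndufaf2 and 1700122H20Rik. Rab3ip, an exchange factor for Rab proteins, had distances of 1.09 and 1.14 in the GSCLC lines against -0.85 and -0.57 in the GSC lines (difference 1.82, SE 0.443, limma adjusted p = 0.167). It ran from 0 to 462 RPM (median 29.9) in GSCLC1 and from 0 to 511 RPM (median 65.1) in GSCLC4, with highest values of 114.2 and 119.7 RPM in the GSC lines. On the lower side Eif2s3x, an X-linked translation initiation factor, had -0.12 and -0.80 against 1.31 and 2.09 (difference -2.16, SE 0.457, limma adjusted p = 0.0556), followed by S100a11 and Lgals1. A p above the threshold does not show that the lines vary alike, and with 2 lines of each kind the precision is low.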

How the data were processed

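Each of the 108 cells was sequenced with SC3-seq, per the labels' protocols. The submitters' processing notes list the build mm10 and the tools Cufflinks 2.2.0, cutadapt 1.3 and TopHat 1.4.1. The authors deposited 1 signal value per gene and cell in RPM, with the 26218 gene rows of a cell scaled to a common total and 92 spike-in RNAs on top. A blank spike-in entry was taken as 0. Between 88.1 and 92.4% of the values of a GSCLC cell were whole reads within 0.05 reads, too few for a count model. Genes with 20% or more of values above 0 that were not whole reads are called uncertain, and the sources used here do not say how the authors divided reads among copies.

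CV2 was computed over the cells of each line for genes averaging 10 RPM or more, and compared with its running median over 301 genes and with a spike-in fit (a constant plus a term inverse to the mean). A negative constant, found in GSCLC1 alone, was set to 0. The 10% with the largest log2 distance were called variable. Distances were compared between GSCLC and GSC lines with limma 3.58.1 in R 4.3.3 (2 lines against 2, Benjamini-Hochberg, threshold 0.05). Nothing in the sources says that the lines of a kind are independent beyond their labels. The p-values do not measure a gene's own spread between lines alone, since limma draws each gene's variance toward that of genes of like level. A gene whose lines of a kind lie far apart, such as S100a6 in the GSC lines, can thus have an SE smaller than its own values would give. Principal components and list levels used log2(RPM + 1). Doublets were not called, and no cell was left out of the main values. Promoters are the 250 bases upstream of RefSeq starts in GRCm38.p6. Scripts were tested on simulated data.

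Named genes were the markers, the 10 of highest mean, the 20 variable in both lines with the largest smaller distance, 5 for each line alone, the 10 steadiest, up to 3 leading members of each list with up to 6 variable in both, limma genes filled to 5 a direction, the 3 genes most like each of the first 10 shared genes, and the 15 largest loadings of each sign. Some genes these rules select are not reported here. Other genes were named after their values were seen. The members, lists and rules were chosen with earlier results of these data known.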

Additional observations from a re-analysis of the deposited data

How the results depend on the processing

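No paired analysis was possible because the numbers in the titles are cell numbers that no 2 lines share. The genes variable in both GSCLC lines, 2.13% of those examined in both, became 301 genes (3.73%) with the SD of log2(RPM + 1) in place of CV2 (37.8% of the main list kept), 263 (3.26%) with distances from the spike-in fit (65.7% kept) and 59 with the top 5%. The other settings gave 1.86% to 2.38%. Under the SD, Kpna2, Pmaip1, Mbnl3, Rrm1 and Atp2b4 were lost from the 20 named genes. Genes at 2 times the spike-in fit, 396 in GSCLC1 and 944 in GSCLC4, became 130 and 289 without each gene's highest cell, 202 and 548 with spike-ins left in RPM, and 40 and 98 at 4 times the fit. Median-ratio scaling of cells gave 259 in GSCLC1. The cause of these shifts was not tested, except that a stricter threshold passes fewer genes by construction. Against the GSC lines, the 2 limma calls became 15 without GSCLC1_MS094_153, 15 with distances from the spike-in fit, 18 at a mean of at least 20 RPM, and 1 each without the GSC1 cell that stands apart, without a variance trend, at a mean of at least 5 RPM, with no filter but detection in 3 cells, and without uncertain genes. The SD of log2 values (pseudocount 1 or 10) and median-ratio scaling gave 0. Leaving out 1 line in turn gave 4 to 28, with the lone line of its kind assumed to vary like the other kind. Leaving out GSCLC1_MS094_153 or GSCLC4_MS094_099 was chosen after seeing the data. Distances were recomputed in this way only for the 20 named genes variable in both lines. Of these values, 469 stayed among the variable genes, 10 did not and none became negative. The 20 genes were picked for large distances. Other named genes could become negative, as Pmm1 did in GSCLC4 without its highest cell. Precision is lowest for low genes: the spike-in fit gives a CV2 of 7.43 in GSCLC1 and 4.45 in GSCLC4 at 10 RPM.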
